A study of Mus musculus with 15 samples.

Results

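The CCL2-CCR2 axis is the chemokine system that brings inflammatory monocytes into tissue. It was followed here in mouse liver through 9 genes, chosen by name out of the 24411 genes in the count tables. They are Ccl2, Ccl7, Ccl8 and Ccl12, which encode ligands of the receptor CCR2, the receptor gene Ccr2 itself, Ccl6 and Ccl9, which encode ligands of CCR1, and the receptor genes Ccr1 and Cx3cr1. Of these, 7 passed the filter on low counts and were tested among 13055 genes. Ccl8 and Ccl12 were too low to be tested.

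As background, chemokines are small secreted proteins that bind receptors coupled to G proteins on leukocytes and direct their movement. CCL2 is released by many cells when tissue is stressed or injured, hepatocytes, stellate cells and macrophages included, and monocytes that carry much CCR2 need that receptor to leave the bone marrow and to enter the liver. There they can turn into macrophages beside the resident Kupffer cells. CX3CR1, the receptor of the membrane-bound chemokine CX3CL1, is highest on patrolling monocytes and on some tissue macrophages.

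Poly(A) RNA of liver was sequenced in 6 libraries labelled LATS KO, here LATS_KO, 5 labelled Yap OE, here YAP_OE, and 4 labelled TdTomato, the wild-type group of the design text. LATS1 and LATS2 are the Hippo kinases that restrain the coactivator YAP, so the design sets loss of the brake and excess of YAP against controls. By its title, the study asks how inflammatory monocytes bear on growth driven by YAP. The sources used here give no promoter, Cre line, age or sex, nor whether each library is an animal of its own, so p-values measure the spread between libraries, which may be technical. In bulk liver, fewer cells of a type and less RNA per cell cannot be told apart.

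Counts on genes ranged from 6166680 to 28225360 per library. LATS_KO 3 and TdTomato 1 stood apart, with 89.9% and 78.5% of their reads unmapped, against 2.53% to 16.7% in the other 13. They also lost low genes. For this check, CPM was reads on a gene scaled to the same total of reads on genes in every library. The CPM values of genes and lists given elsewhere used that total multiplied by each library's TMM scaling factor (edgeR). Of the genes that averaged 1 to 5 CPM in the other libraries of their group, 67.7% were at 0 in LATS_KO 3. The share was 67.1% in TdTomato 1 and at most 4.74% in any other library. Calls for the members and list counts are given with and without LATS_KO 3 and TdTomato 1. The hepatocyte gene Alb was the check of the tissue and was at 30360 CPM or more in all 15 libraries. Yap1 was at 66.0 to 86.4 CPM in LATS_KO, 146 to 212 CPM in YAP_OE and 94.9 to 115 CPM in TdTomato. Lats1 was at 0 to 27.4 CPM in LATS_KO and 0 to 46.0 CPM in TdTomato, and Lats2 at 7.67 to 41.0 CPM in LATS_KO and 0 to 19.6 CPM in TdTomato. Reads over a whole gene do not check a deletion of a part of it.

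Of the 7 tested members, all but Ccl9 were nearly silent in control liver and higher in both manipulated groups, while Ccl8 and Ccl12 stayed close to 0 everywhere. In LATS_KO, 6 of the 7 tested members were higher than in TdTomato (edgeR quasi-likelihood test, Benjamini-Hochberg adjusted p under 0.05), where 10.0% of all genes tested were higher. In YAP_OE the same 6 members, Ccl2, Ccl7, Ccr2, Ccl6, Ccr1 and Cx3cr1, were higher, against a background of 17.9%. These 6 members had 0 to 18 reads each over all controls, so they passed the filter on low counts through the manipulated libraries. The direction of their change, though not its passing of the test, was thus largely set in advance. Both comparisons use the same 4 control libraries, so they are not independent. Groups did not overlap for 2 members in LATS_KO, Ccl2 and Ccl6, where 6.65% of all genes had every library above every control, and for all 6 in YAP_OE, where 28.3% had. The 6 calls held in each comparison without LATS_KO 3 and TdTomato 1. A fit of LATS_KO and TdTomato alone, which gives up the spread estimated from YAP_OE, called none of the 5 members it could test and 1 gene in all. In that fit the adjusted p was 0.065 for Ccl2, 0.094 for Ccr2, 0.084 for Ccl6 and 0.17 for Cx3cr1, each of them past the test in the joint fit.

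**Figure D1:**
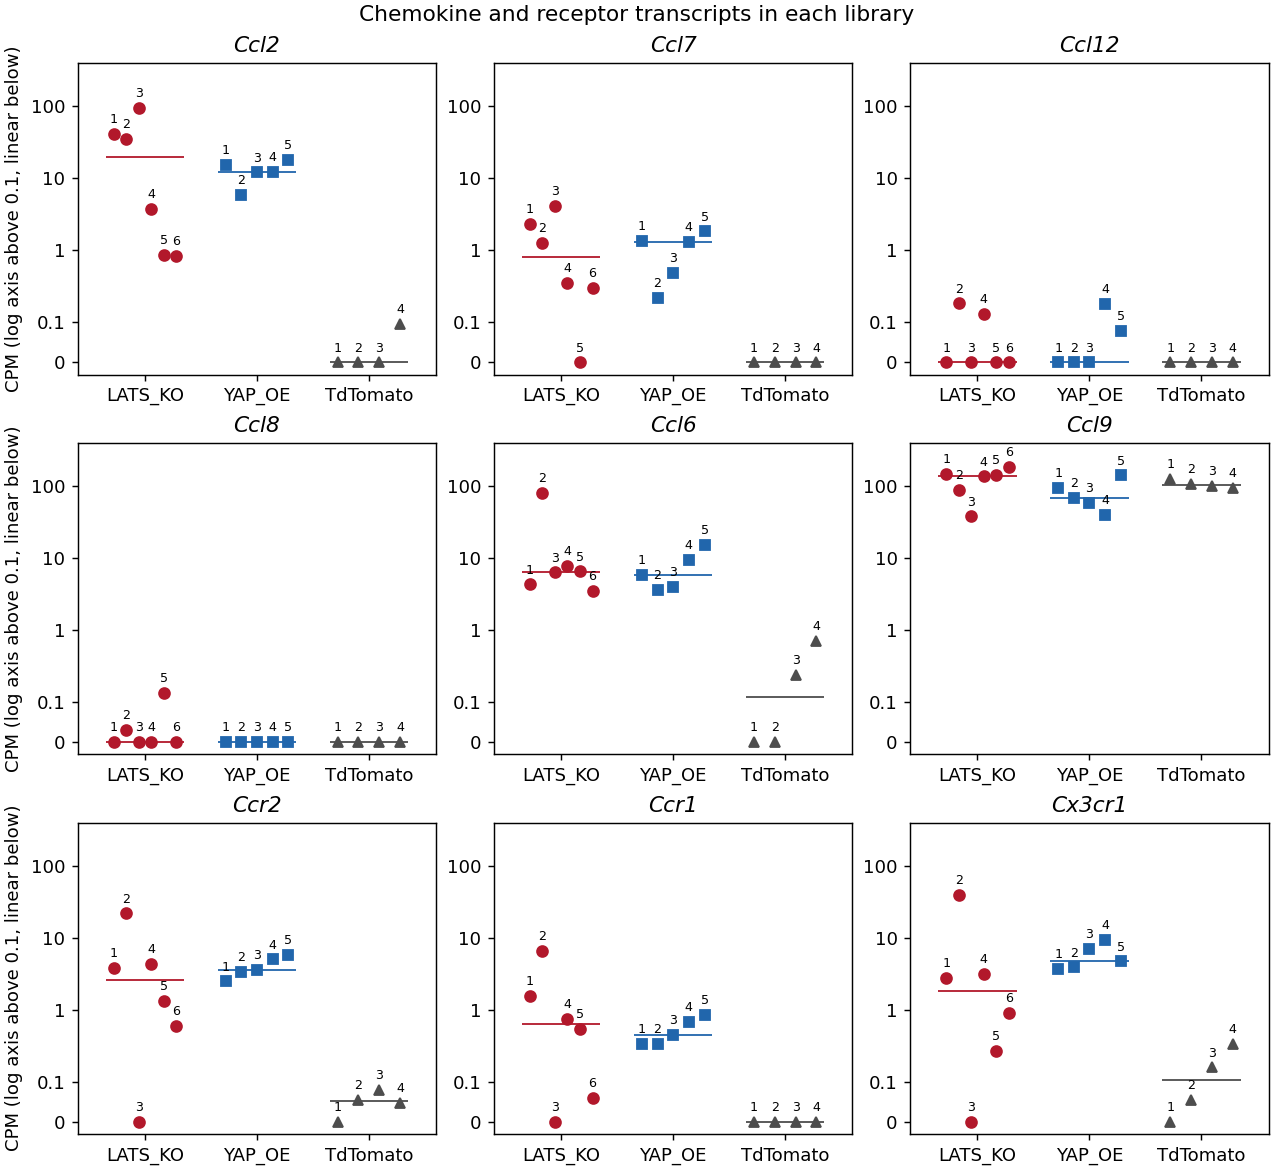
CPM of each of the 9 genes (vertical axis, logarithmic above 0.1 and linear below) in the LATS_KO, YAP_OE and TdTomato libraries; each point is a library with its number, and the line is the group median. Ccl9 lay between 38.0 and 184 CPM in every library, while Ccl2 did not exceed 0.0958 CPM in TdTomato and reached 96.5 CPM in LATS_KO 3.

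Ccl2 (chromosome 11, 82035571 to 82037453, plus strand, GRCm38) encodes the main CCR2 ligand. It was at 41.0, 35.5, 96.5, 3.81, 0.877 and 0.841 CPM in LATS_KO 1 to 6, at 15.3, 5.96, 12.2, 12.3 and 18.3 CPM in the 5 YAP_OE libraries in order, and at 0, 0, 0 and 0.0958 CPM in TdTomato 1 to 4. Every manipulated library was above every control. The YAP_OE libraries formed a narrow band, whereas the LATS_KO libraries spread from below to above that band, with LATS_KO 1, 2 and 3 above all 5 YAP_OE libraries and LATS_KO 4, 5 and 6 below them. Since the controls held only 2 Ccl2 reads in all, both from TdTomato 4, the difference is given as a ratio of pooled CPM with its exact 95% interval for counting error. Ccl2 rose 817-fold in LATS_KO (interval 226 to 6752, adjusted p = 0.0055, edgeR) and 414-fold in YAP_OE (interval 115 to 3425, adjusted p = 0.0037). Without TdTomato 4 the controls had no read, and the lower bounds, set against 3 counts over the group, were 368-fold in LATS_KO and 187-fold in YAP_OE. Without LATS_KO 3 and TdTomato 1 the ratio in LATS_KO was 497 (adjusted p = 0.0098).

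The other CCR2 ligands are encoded beside Ccl2, over 81.2 kb of chromosome 11 in the order Ccl2, Ccl7, Ccl11, Ccl12 and Ccl8. Ccl7 (82045712 to 82047525, plus strand), a ligand of CCR2 and of other CC receptors, was at 2.33, 1.29, 4.11, 0.351, 0 and 0.300 CPM in LATS_KO 1 to 6, at 1.35, 0.222, 0.486, 1.32 and 1.84 CPM in the 5 YAP_OE libraries in order, and at 0 in all 4 controls, whose floors of 3 counts corresponded to 0.144 to 0.238 CPM. Its highest LATS_KO library was again LATS_KO 3, and LATS_KO 5 was at 0 as the controls were. Ccl7 was at least 25.4-fold higher in LATS_KO (adjusted p = 0.020, edgeR) and at least 22.6-fold higher in YAP_OE (adjusted p = 0.013), each set against 3 counts over the control group. Without LATS_KO 3 and TdTomato 1 the bound in LATS_KO was 16.0-fold (adjusted p = 0.038). The LATS_KO call was lost without TdTomato 2 or without TdTomato 4 (adjusted p = 0.057 each).

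The far end of this cluster stayed almost silent. Ccl12, a CCR2 ligand known in mouse, had 6 reads in LATS_KO 2, 3 in LATS_KO 4, 5 in YAP_OE 4, 2 in YAP_OE 5 and none elsewhere. Ccl8, whose mouse protein also acts on CCR8, had 2 reads in LATS_KO 5, 1 in LATS_KO 2 and none elsewhere. When genes were not filtered on low counts, neither gene passed the test in LATS_KO (adjusted p = 0.36 for Ccl8 and 0.27 for Ccl12, edgeR) and Ccl12 did not in YAP_OE (adjusted p = 0.23). Ccl11, the eosinophil attractant that lies between Ccl7 and Ccl12, had 0 reads in all 15 libraries.

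Ccl2 therefore supplied nearly all ligand reads for CCR2. Of the reads on Ccl2, Ccl7, Ccl8 and Ccl12 together, it took 94.6%, 95.9%, 95.9%, 88.8%, 86.7% and 73.7% in LATS_KO 1 to 6, and 91.9%, 96.4%, 96.2%, 89.1% and 90.5% in YAP_OE 1 to 5. The lowest share, in LATS_KO 6, rested on 19 reads, and its exact 95% interval of 48.8% to 90.9% covers counting error only. The ratio of Ccl2 to Ccl7 reads, where Ccl7 had any, was 2.80 to 27.5 in LATS_KO and 9.32 to 26.8 in YAP_OE. These shares and ratios are not corrected for exon length, 1138 bases for Ccl2, 801 for Ccl7, 511 for Ccl8 and 537 for Ccl12.

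Ccr2 (chromosome 9, 124101950 to 124113557, plus strand) encodes the receptor that marks inflammatory monocytes. It was at 3.84, 21.8, 0, 4.38, 1.35 and 0.601 CPM in LATS_KO 1 to 6, at 2.49, 3.41, 3.55, 5.04 and 5.80 CPM in the 5 YAP_OE libraries in order, and at 0, 0.0552, 0.0794 and 0.0479 CPM in TdTomato 1 to 4. Controls held a single read in each of 3 libraries. LATS_KO 2 was high and LATS_KO 3, the library with most reads unmapped, was at 0, where 3 counts would be 0.333 CPM. Ccr2 rose 172-fold in LATS_KO (ratio of pooled CPM, exact 95% interval 58.5 to 833, adjusted p = 0.013, edgeR) and 85.7-fold in YAP_OE (interval 29.2 to 417, adjusted p = 0.0080). LATS_KO 2 carried much of the first value, since the ratio was 52.9 without it (interval 17.8 to 259, adjusted p = 0.022). The summed level of macrophage markers was also highest in that library, at 535 CPM against 76.8 to 273 CPM in the other 5 LATS_KO libraries, and its part in the Ccr2 value was not tested.

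Ligand and receptor did not rank the LATS_KO libraries alike. LATS_KO 3 had the highest Ccl2 and no Ccr2 read, LATS_KO 1 and 4 had Ccr2 of 3.84 and 4.38 CPM at Ccl2 of 41.0 and 3.81 CPM, and LATS_KO 5 and 6 were low in both. After group means were removed, Pearson's r between log2 CPM of the 2 genes was −0.02 over 15 libraries and 0.78 over the 13 without LATS_KO 3 and TdTomato 1, both given as descriptions over libraries that share depth and tissue composition. In reads, Ccl2 was 0.65 to 10.7 times Ccr2 in the 5 LATS_KO libraries with a Ccr2 read and 1.75 to 6.15 times Ccr2 in YAP_OE. These read ratios are not corrected for exon length, which is 1138 bases for Ccl2 and 6760 bases for Ccr2. In LATS_KO 5, where the read ratio was 0.65, Ccl2 was at 0.770 and Ccr2 at 0.200 CPM per kb of exon.

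**Figure D2:**
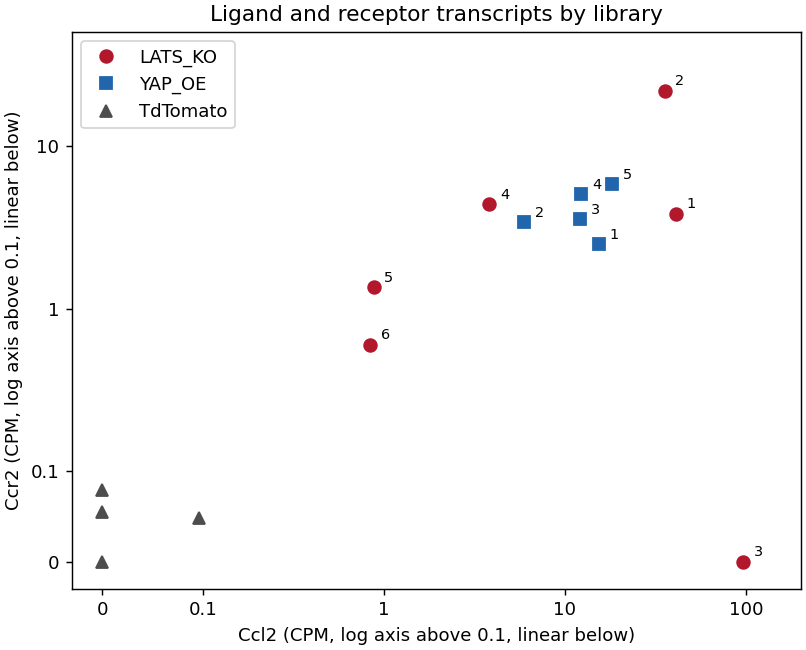
Ccl2 (horizontal) against Ccr2 (vertical), both in CPM on axes that are logarithmic above 0.1 and linear below; circles are LATS_KO and squares YAP_OE libraries, with their numbers, and triangles are TdTomato. The YAP_OE libraries lie close together, LATS_KO 3 lies at 96.5 CPM Ccl2 and 0 Ccr2, and the controls lie at or below 0.0958 CPM of each gene.

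Ccl6 and Ccl9 are rodent chemokines, made by myeloid cells, that act through CCR1. They lie side by side on the minus strand of chromosome 11 within 20.2 kb, yet differed in control liver. The 250 bases before each RefSeq start are shown because these neighbours differed in level in control liver; capitals mark matches to the motifs searched, and sequences are 5′ to 3′ on the minus strand, from the RefSeq promoter table for GRCm38.p6, which matched 7 of the 9 members (Ccl2 and Ccl7 had no entry).
Ccl9 (chr11:83578637-83578886): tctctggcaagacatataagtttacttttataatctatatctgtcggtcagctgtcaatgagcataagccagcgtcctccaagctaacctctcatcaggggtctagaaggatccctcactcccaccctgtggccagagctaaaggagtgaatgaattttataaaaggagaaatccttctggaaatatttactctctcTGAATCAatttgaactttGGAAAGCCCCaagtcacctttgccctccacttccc
Ccl6 (chr11:83593088-83593337): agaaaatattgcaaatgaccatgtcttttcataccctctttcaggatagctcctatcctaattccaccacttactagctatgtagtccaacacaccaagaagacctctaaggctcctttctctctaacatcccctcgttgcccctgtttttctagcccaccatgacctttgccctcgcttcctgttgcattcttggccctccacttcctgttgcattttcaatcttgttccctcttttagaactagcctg

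Windows from 250 bases before to 50 after each start were searched on both strands for GGAATG (TEAD), TGANTCA (AP-1), the consensus of the NF-kB family and CCAAT, and no match overlapped another. The Ccl9 window held an AP-1 match, TGAATCA, that begins 53 bases before the start, and an NF-kB family match, printed as GGAAAGCCCC, that begins 35 bases before it. The Ccl6 window held none of the 4. Of the other 5 windows, that of Cx3cr1 held a CCAAT box on the opposite strand, ATTGG, 32 bases before the start, and those of Ccr1, Ccr2, Ccl8 and Ccl12 held no match. For Cx3cr1 and Ccr2 the 250 bases before the RefSeq start overlap annotated exons, so these windows are not purely upstream sequence. Over 32851 promoters of this length the motifs occurred in 14.7% (TEAD), 7.81% (AP-1), 4.79% (NF-kB family) and 37.4% (CCAAT). A match describes letters and is not a bound site.

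Ccl6 (83587882 to 83593087) was at 4.33, 80.4, 6.33, 7.89, 6.54 and 3.55 CPM in LATS_KO 1 to 6, at 5.79, 3.67, 3.97, 9.54 and 15.4 CPM in the 5 YAP_OE libraries in order, and at 0, 0, 0.238 and 0.718 CPM in TdTomato 1 to 4. Every manipulated library was above every control, and apart from LATS_KO 2 the LATS_KO libraries were more even for Ccl6 than for Ccl2. Ccl6 rose by 6.15 ± 1.37 on the log2 scale in LATS_KO (SE, adjusted p = 0.012, edgeR) and by 4.90 ± 1.31 in YAP_OE (adjusted p = 0.013). The log2 change in LATS_KO was 4.49 without LATS_KO 2 and 7.85 without TdTomato 4, and that in YAP_OE was 6.61 without TdTomato 4. A noncoding gene on the opposite strand, E230016K23Rik, overlaps Ccl6, and the counts used are strand-specific.

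Ccl9 (83572919 to 83578636) was the member that did not follow the others. It was at 148, 89.5, 38.0, 137, 143 and 184 CPM in LATS_KO 1 to 6, at 95.1, 69.6, 58.8, 39.9 and 141 CPM in the 5 YAP_OE libraries in order, and at 127, 107, 100 and 95.1 CPM in TdTomato 1 to 4. The 3 groups overlapped, and LATS_KO 3, the highest library for Ccl2, was the lowest for Ccl9. In TdTomato the leukocyte gene Ptprc was at most at 0.910 CPM and the macrophage gene Adgre1 at most at 0.718 CPM. Which cells gave the Ccl9 reads was not tested. Neither difference from TdTomato passed the test, with log2 changes of 0.20 ± 0.38 in LATS_KO (SE, adjusted p = 0.80, edgeR) and −0.41 ± 0.39 in YAP_OE (adjusted p = 0.48), where the YAP_OE value was 0.054 without scaling factors. In YAP_OE limma voom called Ccl9 lower (−0.69, adjusted p = 0.0062). Reads of Ccl6 per read of Ccl9 were 0.0193 to 0.898 in LATS_KO, 0.0527 to 0.239 in YAP_OE and 0 to 0.00755 in TdTomato.

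Ccr1 (chromosome 9, 123962124 to 123968692, minus strand), the receptor of CCL6 and CCL9 on myeloid cells, was at 1.57, 6.66, 0, 0.745, 0.539 and 0.0601 CPM in LATS_KO 1 to 6, at 0.339, 0.333, 0.449, 0.679 and 0.862 CPM in the 5 YAP_OE libraries in order, and at 0 in all 4 controls. All 5 YAP_OE libraries were above the controls, LATS_KO 3 was at 0 and LATS_KO 6 had 1 read. Ccr1 was at least 51.2-fold higher in LATS_KO (against 3 counts over the control group, adjusted p = 0.022, edgeR) and at least 11.2-fold higher in YAP_OE (adjusted p = 0.028). Without LATS_KO 2 the first bound was 14.5-fold (adjusted p = 0.031). Both calls were lost without TdTomato 2, 3 or 4, with adjusted p = 0.061, 0.054 and 0.061 in LATS_KO and 0.058, 0.051 and 0.063 in YAP_OE. On the unstranded counts its log2 changes were −0.33 and −1.94 in LATS_KO and YAP_OE (adjusted p = 0.93 and 0.42), since TdTomato 1 held 108 reads on the opposite strand of Ccr1 and none on its own.

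Ccr1 and Ccr2 lie on chromosome 9 in a cluster of receptor genes with Ccr1l1 and Ccr3. Ccr3, the eosinophil receptor, had 7, 17 and 0 reads in LATS_KO, YAP_OE and TdTomato.

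Cx3cr1 (chromosome 9, 119901616 to 120069879, minus strand, where 1 isoform spans other genes) was at 2.81, 39.1, 0, 3.16, 0.270 and 0.901 CPM in LATS_KO 1 to 6, at 3.69, 3.89, 7.07, 9.33 and 4.70 CPM in the 5 YAP_OE libraries in order, and at 0, 0.0552, 0.159 and 0.335 CPM in TdTomato 1 to 4. YAP_OE libraries were all above the controls, while LATS_KO 3 and 5 were inside the control range and LATS_KO 2 stood far above the rest. Cx3cr1 rose by 5.70 ± 1.67 on the log2 scale in LATS_KO (SE, adjusted p = 0.040, edgeR) and by 5.26 ± 1.65 in YAP_OE (adjusted p = 0.027). The LATS_KO call is fragile. It was lost without LATS_KO 1 (adjusted p = 0.051) or LATS_KO 2 (3.29, adjusted p = 0.11), without any of YAP_OE 1 to 5 (adjusted p = 0.055 to 0.056), and without TdTomato 1, 2, 3 or 4 (adjusted p = 0.077, 0.11, 0.095 and 0.074). The YAP_OE call was lost without YAP_OE 4 or TdTomato 1, 2 or 3 (adjusted p = 0.052, 0.052, 0.072 and 0.062), and without TdTomato 4 the log2 change was 6.24 in YAP_OE and 6.67 in LATS_KO.

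Its ligand gene, Cx3cl1, had a lowest, median and highest value of 0, 0.0658 and 2.95 CPM in LATS_KO, of 5.46, 8.26 and 9.05 CPM in YAP_OE, and of 0, 0 and 0.0794 CPM in TdTomato. All 5 YAP_OE libraries were above all LATS_KO libraries and controls. Cx3cl1 rose 485-fold in YAP_OE (ratio of pooled CPM, exact 95% interval 86.9 to 19187 from 1 control read, adjusted p = 0.0067, edgeR), and without TdTomato 3, which held that read, it was at least 130-fold higher. In LATS_KO its ratio of 75.0 did not pass the test (interval 13.2 to 2986, adjusted p = 0.071), nor did its log2 difference of 3.13 ± 1.15 in YAP_OE against LATS_KO (SE, adjusted p = 0.21).

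Levels of different genes were compared as CPM per kb of exon. In YAP_OE the order was Ccl9 with a mean of 26.6 ± 12.8, Ccl2 with 11.3 ± 4.02, Ccl6 with 4.27 ± 2.74, Ccl7 with 1.31 ± 0.837, Cx3cr1 with 1.27 ± 0.536, Ccr2 with 0.600 ± 0.197 and Ccr1 with 0.188 ± 0.0818 CPM per kb (SD, n = 5). Per length, the mean of Ccl2 was above that of Ccr2 and the means of Ccl6 and Ccl9 were above that of Ccr1. Ccl7 and Cx3cr1 were closer than their spread. In LATS_KO the means kept that order, at 40.5 ± 16.9 for Ccl9, 26.2 ± 32.8 for Ccl2, 10.1 ± 17.0 for Ccl6, 1.74 ± 1.97 for Ccl7, 1.71 ± 3.43 for Cx3cr1, 0.789 ± 1.22 for Ccr2 and 0.563 ± 0.899 for Ccr1 (SD, n = 6), but the SD exceeded the mean for all of these but Ccl9. In TdTomato only Ccl9 was abundant, at 35.2 ± 4.55 CPM per kb (SD, n = 4), and Ccl6 was next at 0.133 ± 0.189.

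**Figure D3:**
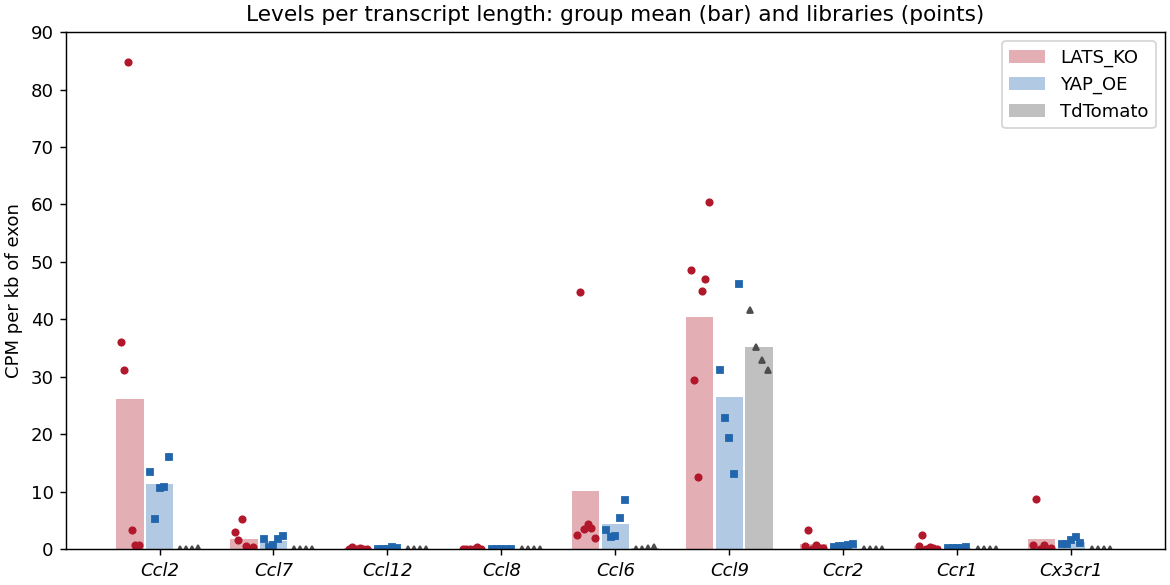
CPM per kb of exon (linear axis from 0) for the 9 genes; bars are group means of LATS_KO (n = 6), YAP_OE (n = 5) and TdTomato (n = 4), from left to right for each gene, and points are the libraries. Ccl9 had tall bars in all 3 groups, Ccl2 had means of 26.2 in LATS_KO and 11.3 in YAP_OE, and TdTomato bars other than that of Ccl9 did not exceed 0.133.

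The manipulated groups were also set against each other. None of the 7 tested members passed the test in YAP_OE against LATS_KO, where 0.988% of all genes did, and 0 of 7 had an unadjusted p under 0.05 in edgeR. Ccl2 had a log2 difference of −1.21 ± 0.95 (SE, adjusted p = 0.65), Ccr2 one of −0.40 ± 0.96 (adjusted p = 0.94), Ccl6 one of −1.25 ± 0.95 (adjusted p = 0.64) and Ccl9 one of −0.61 ± 0.36 (adjusted p = 0.48). Differences for Ccl7, Ccr1 and Cx3cr1 were −0.40 ± 1.00, −1.60 ± 1.08 and −0.43 ± 1.15. These standard errors of about 1 for most members mean that differences of several fold could not be detected, so the groups are not shown to be alike. DESeq2 called 0 of the 5 members it gave an adjusted p for, Ccl6 and Cx3cr1 having none, whereas voom with library weights called 3, with Ccl2 and Cx3cr1 higher in YAP_OE (2.10, adjusted p = 0.0059, and 2.17, adjusted p = 0.0078) and Ccl9 lower (−1.16, adjusted p = 0.00020). Voom also turned the signs of Ccl7 and Ccr2 (1.72 and 0.67), so 4 of the 7 signs differed between tools. Single libraries turned signs in edgeR too. Without LATS_KO 2 the differences were 0.98 for Ccr2, 0.42 for Ccl6 and 1.98 for Cx3cr1, and without LATS_KO 3 they were 0.28 for Ccl7 and −0.36 for Ccl2.

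The genes whose pattern was most like that of Ccl2 and Ccr2 were taken by Pearson's r of log2 CPM over the 15 libraries after group means were removed, among 9402 tested genes with a mean of at least 5 CPM and a symbol other than a Gm number or a Rik clone name. For Ccl2 they were Smtnl2 (r = 0.98), Ier3 (0.97), Vgll3 (0.97), Bex1 (0.96) and Glipr2 (0.96). For Ccr2 they were Capg (0.93), Paqr4 (0.92), Sepn1 (0.92), Cx3cr1 (0.92) and Fermt3 (0.91). Ier3 is an immediate early gene, Vgll3 encodes a TEAD cofactor, Capg an actin-capping protein and Fermt3 the integrin activator kindlin-3 of blood cells. Without LATS_KO 3 and TdTomato 1 the values were 0.95 to 0.97 for the Ccl2 set and 0.82 to 0.87 for the Ccr2 set. Within the axis, Ccl2 and Ccl7 had r = 0.89 and the receptors Ccr2 and Ccr1 r = 0.95. The r of Ccl9 with the other tested members ran from −0.535 with Ccl2 to 0.36 with Ccr2. Without LATS_KO 3 and TdTomato 1, Ccl2 and Ccl7 had r = 0.85 and Ccr2 and Ccr1 r = 0.96. In the same libraries Ccl9 had r = −0.22 with Ccl2 and −0.43 with Ccr2. The LATS_KO libraries formed 2 sets over all genes. Their chi-square per gene against sampling noise was 79.1 to 178 within LATS_KO 1 to 3 and within LATS_KO 4 to 6. Between these sets it was 418 to 881. Ccl2 was split in the same way, and 1 mean was removed for all of LATS_KO. How much of each r follows this split was not tested. These libraries share depth and composition, and the values are descriptions.

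The rest of the pathway was read through 5 lists, whose medians can be set against those of all tested genes, 0.13 on the log2 scale in LATS_KO and 0.17 in YAP_OE, and whose counts against the 10.0% and 17.9% of all genes that were higher in LATS_KO and YAP_OE. In these lists and the marker lists below, genes near 0 in controls could be tested only if they were high in manipulated libraries. That tilts the counts and medians towards higher. Of 14 other CC and CX3C chemokine genes, 5 were tested. Ccl24, an eosinophil attractant, rose in LATS_KO (4.47 ± 1.30, SE, adjusted p = 0.039, edgeR), and Cx3cl1 and Ccl3, a ligand of CCR1, rose in YAP_OE. For Ccl3 the ratio of pooled CPM was 37.4 (interval 6.53 to 1495, adjusted p = 0.022), and the call was lost without TdTomato 3 or 4 (adjusted p = 0.054 and 0.065), while its log2 change of 4.83 became 6.69 without TdTomato 2. List medians were 3.37 in LATS_KO and 3.46 in YAP_OE, and the counts were 0 to 2 in LATS_KO and 1 to 3 in YAP_OE with 1 library left out. The Ccl24 call was lost without LATS_KO 2 or 4, YAP_OE 1, 2, 3 or 4, or any control (adjusted p = 0.053 to 0.11). Among other receptors, the scavenging receptor gene Ackr3 (ratio of pooled CPM 35.6, interval 9.68 to 296, adjusted p = 0.019, edgeR) and Ccrl2 (log2 change 3.18 ± 1.02, SE, adjusted p = 0.030) rose in YAP_OE. In LATS_KO their log2 changes of 2.84 ± 1.35 and 1.40 ± 0.93 did not pass (adjusted p = 0.20 and 0.39). Without TdTomato 4, Ackr3 and Ccrl2 no longer passed (adjusted p = 0.058 and 0.078), and Ccrl2 did not pass without YAP_OE 1, 4 or 5 or TdTomato 2 or 3 either (adjusted p = 0.053 to 0.061). Without TdTomato 3, Ackr3 had a log2 change of 5.47, against 4.86 with it.

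Of the genes that carry the receptor signal inside the cell, all 14 were tested, and 7 rose in LATS_KO (median 3.93) and 8 in YAP_OE (median 3.58). Rac2, a GTPase of blood cells, rose by 6.54 ± 0.98 on the log2 scale in LATS_KO (SE, adjusted p = 0.0032, edgeR) and by 5.51 ± 0.95 in YAP_OE (adjusted p = 0.0021). Vav1, an activator of such GTPases in leukocytes, rose by 6.21 ± 1.04 in LATS_KO and 5.15 ± 1.01 in YAP_OE (adjusted p = 0.0048 and 0.0035). Without LATS_KO 2 the Rac2 value in LATS_KO was 5.88, and without TdTomato 2 Vav1 was at 7.08 in LATS_KO and 6.02 in YAP_OE. With 1 library left out, the count was 5 to 11 in LATS_KO, the highest without LATS_KO 6, and 6 to 11 in YAP_OE.

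Adhesion and vessel-crossing genes rose in 6 of the 14 tested of 17 in LATS_KO (median 2.55) and in 11 in YAP_OE (median 2.86). Itgb2, the shared chain of leukocyte integrins, rose by 6.97 ± 1.04 on the log2 scale in LATS_KO (SE, adjusted p = 0.0032, edgeR) and by 5.95 ± 1.01 in YAP_OE (adjusted p = 0.0020). Without LATS_KO 2 it rose by 5.99 in LATS_KO. The count in LATS_KO was 2 to 7 with 1 library left out, with 3 without TdTomato 2 and 2 without TdTomato 4. That in YAP_OE was 7 to 12, with 7 without YAP_OE 4 or TdTomato 3. Of 8 monocyte growth factor and receptor genes, 6 were tested and 4 rose in each comparison. Csf1, the growth factor of the monocyte lineage, rose by 5.10 ± 1.15 in LATS_KO (adjusted p = 0.013) and by 5.92 ± 1.21 in YAP_OE (adjusted p = 0.0042). Its receptor gene Csf1r had a lowest, median and highest value of 29.4, 84.0 and 294 CPM in LATS_KO, of 164, 208 and 230 CPM in YAP_OE, and of 0, 1.56 and 2.86 CPM in TdTomato. Medians of this list were 4.54 in LATS_KO and 5.06 in YAP_OE, or 4.54 and 4.72 with Il34, at 0 in controls, set at its lower bound. The LATS_KO count was 2 without TdTomato 2, 3 or 4 and at most 4 with any 1 library left out.

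Of 17 known inducers and transcription factors of these chemokines, 15 were tested; 2 rose in LATS_KO (median 0.45) and 4 in YAP_OE (median 0.79), or 13.3% and 26.7% of those tested, near the 10.0% and 17.9% of all genes. With 1 library left out the counts were 0 to 2 in LATS_KO and 3 to 6 in YAP_OE. Il1b, an inflammatory cytokine, rose by 4.85 ± 1.13 on the log2 scale in LATS_KO (SE, adjusted p = 0.015, edgeR) and by 5.97 ± 1.19 in YAP_OE (adjusted p = 0.0038). The AP-1 gene Fos rose by 2.77 ± 0.65 (adjusted p = 0.0074) and the NF-kB gene Nfkb2 by 1.48 ± 0.40 (adjusted p = 0.014) in YAP_OE. In LATS_KO the AP-1 gene Fosl1 was at least 28.8-fold higher (adjusted p = 0.046). Without TdTomato 2 or 4 the call for Il1b in LATS_KO was lost (adjusted p = 0.056 and 0.051). The call for Fosl1 held only without LATS_KO 4, 5 or 6, was lost without each of the other 12 libraries (adjusted p = 0.062 to 0.10), and its bound was 15.8-fold without LATS_KO 2. In YAP_OE against LATS_KO, none of these 5 pathway lists had a member past the test in edgeR; their counts at an unadjusted p under 0.05 were 0 to 2, and those called were 0 or 1 by DESeq2 and 3 to 7 by voom. Without LATS_KO 3 and TdTomato 1, the members that rose numbered 8 in LATS_KO and 12 in YAP_OE for receptor signalling, 9 and 12 for adhesion, 4 and 5 for growth factors, 3 and 6 for inducers and 2 and 4 for the other chemokines.

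Many leukocyte markers were higher in both groups, against all-gene shares of 10.0% higher in LATS_KO and 17.9% higher in YAP_OE. Macrophage markers rose in 9 of 12 in LATS_KO and 10 of 12 in YAP_OE, with summed levels of 76.8 to 535 CPM in LATS_KO, 141 to 352 CPM in YAP_OE and 0.0774 to 19.1 CPM in TdTomato. Without LATS_KO 3 and TdTomato 1 both counts were 10, and with 1 library left out they were 7 to 11 in LATS_KO and 8 to 11 in YAP_OE. Kupffer cell markers rose in 11 of 12 in LATS_KO and 9 of 12 in YAP_OE, with sums of 161 to 1247, 360 to 848 and 62.3 to 114 CPM in LATS_KO, YAP_OE and TdTomato. The TdTomato sum was mostly Slc40a1, at 53.2 to 103 CPM. No other marker of the list exceeded 8.75 CPM in TdTomato, the highest value of Clec4f. The LATS_KO count fell to 4, 6 and 7 without TdTomato 2, 3 and 4, and the counts were 12 in LATS_KO and 11 in YAP_OE without LATS_KO 3 and TdTomato 1. LATS_KO 2, the highest library for Ccr2, Ccr1, Cx3cr1 and Ccl6, was also the highest for the macrophage and Kupffer sums. These sums did not rank the LATS_KO libraries as Ccl2 did. LATS_KO 1, with Ccl2 at 41.0 CPM, had the lowest macrophage and Kupffer sums of its group, 76.8 and 161 CPM. LATS_KO 4, with Ccl2 at 3.81 CPM, had sums of 273 and 862 CPM. LATS_KO 2 had Ccl2 at 35.5 CPM along with the highest sums, and LATS_KO 3 had lost low genes. The part of these cells in the Ccl2 result was not tested.

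Of 10 inflammatory monocyte markers, 7 were tested and 5 rose in LATS_KO and 3 in YAP_OE, and 2 of the 10 were at 0 in TdTomato. The sum of this list is mostly Fn1, a matrix gene that hepatocytes also express. Its counts were 4 in each comparison without LATS_KO 3 and TdTomato 1, and that in LATS_KO was 2 without TdTomato 2 or 4 and 3 without LATS_KO 1, 2 or 3, YAP_OE 4 or TdTomato 3. Non-classical monocyte markers rose in 5 of 8 in each comparison, or in 5 in LATS_KO and 6 in YAP_OE without LATS_KO 3 and TdTomato 1. With 1 library left out, their counts were 1 to 5 in LATS_KO and 2 to 5 in YAP_OE, with the lowest LATS_KO count without TdTomato 2 and the lowest YAP_OE counts without TdTomato 2 or 3. Ptprc, which encodes the leukocyte antigen CD45, was at 2.67 to 29.2 CPM in LATS_KO, 6.71 to 14.0 CPM in YAP_OE and 0 to 0.910 CPM in TdTomato, and the macrophage gene Adgre1 at 0 to 32.1, 11.5 to 22.8 and 0 to 0.718 CPM. Of 8 pan-leukocyte markers, 7 rose in LATS_KO and 6 in YAP_OE, where Lcp1 fell by 1.14 ± 0.30 on the log2 scale (SE, adjusted p = 0.013, edgeR). These counts were 7 in each without LATS_KO 3 and TdTomato 1. How much leukocyte RNA the tissue of each group held and the level of the axis per cell cannot be told apart.

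Markers of other cells behaved differently from library to library. Their counts can be set against the 10.0% and 17.9% of all genes that were higher in LATS_KO and YAP_OE. Cholangiocyte markers summed to 4470, 1990, 1524, 205, 92.6 and 131 CPM in LATS_KO 1 to 6, to 3919 to 6479 CPM in YAP_OE and to 24.1 to 47.9 CPM in TdTomato. The sum was mostly Spp1, at 81.1 to 4210 CPM in LATS_KO and 3620 to 6063 CPM in YAP_OE. The next highest gene, Sox4, reached at most 207 CPM in LATS_KO and 295 CPM in YAP_OE. LATS_KO 1, 2 and 3 were high for the sum as they were for Ccl2. The part of these markers in the Ccl2 result was not tested. They rose in 5 of 6 tested in each comparison, or in 3 of 8 in LATS_KO and 7 of 8 in YAP_OE without LATS_KO 3 and TdTomato 1, and the LATS_KO count was 2 or 3 without LATS_KO 2 or any 1 control. Markers of stellate cells and fibroblasts rose in 4 of 12 in LATS_KO and 10 of 12 in YAP_OE, or in 5 and 11 without LATS_KO 3 and TdTomato 1. With 1 library left out, their LATS_KO count was 0 to 7, with 7 without LATS_KO 3 and 0 without TdTomato 2 or 4. Sinusoidal endothelial markers rose in 2 of 10 in LATS_KO and 3 of 10 in YAP_OE, but in 7 of 10 in each without LATS_KO 3 and TdTomato 1. Leaving out LATS_KO 3 alone gave 7 in each, and the range with any 1 library left out was 0 to 7.

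Neutrophil markers rose in 2 of the 6 tested in LATS_KO and 1 in YAP_OE, T and NK cell markers in 1 of 2 tested in each, and their sums reached at most 34.5 and 3.10 CPM in LATS_KO, 6.55 and 1.41 CPM in YAP_OE and 8.13 and 2.70 CPM in TdTomato. The neutrophil counts were 0 to 4 in LATS_KO and 0 to 2 in YAP_OE with 1 library left out, and the T and NK counts 0 or 1. Dendritic cell markers rose in 3 of 4 tested in each comparison, with or without any 1 library. Those of eosinophils, basophils and mast cells rose in 1 of 2, with 0 to 2 when 1 library was left out. Hepatocyte markers fell in 1 of 10 in LATS_KO and 4 of 10 in YAP_OE, against 0.973% and 10.8% of all genes that were lower in LATS_KO and YAP_OE. With 1 library left out, 0 to 2 fell in LATS_KO and 3 to 7 in YAP_OE, with 7 without LATS_KO 3. Of the 2 tested B and plasma cell markers, 1 rose in LATS_KO and 1 fell in YAP_OE, each count being 0 or 1 with 1 library left out. Without LATS_KO 3 and TdTomato 1, the markers that rose in LATS_KO and YAP_OE numbered 3 and 2 for neutrophils, 2 and 2 for eosinophils, basophils and mast cells, 3 and 3 for dendritic cells, 1 and 1 for T and NK cells and 1 and 0 for B and plasma cells. In that fit 2 hepatocyte markers fell in LATS_KO and 5 in YAP_OE, 1 T and NK cell marker fell in each and 2 B and plasma cell markers fell in YAP_OE.

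**Figure D4:**
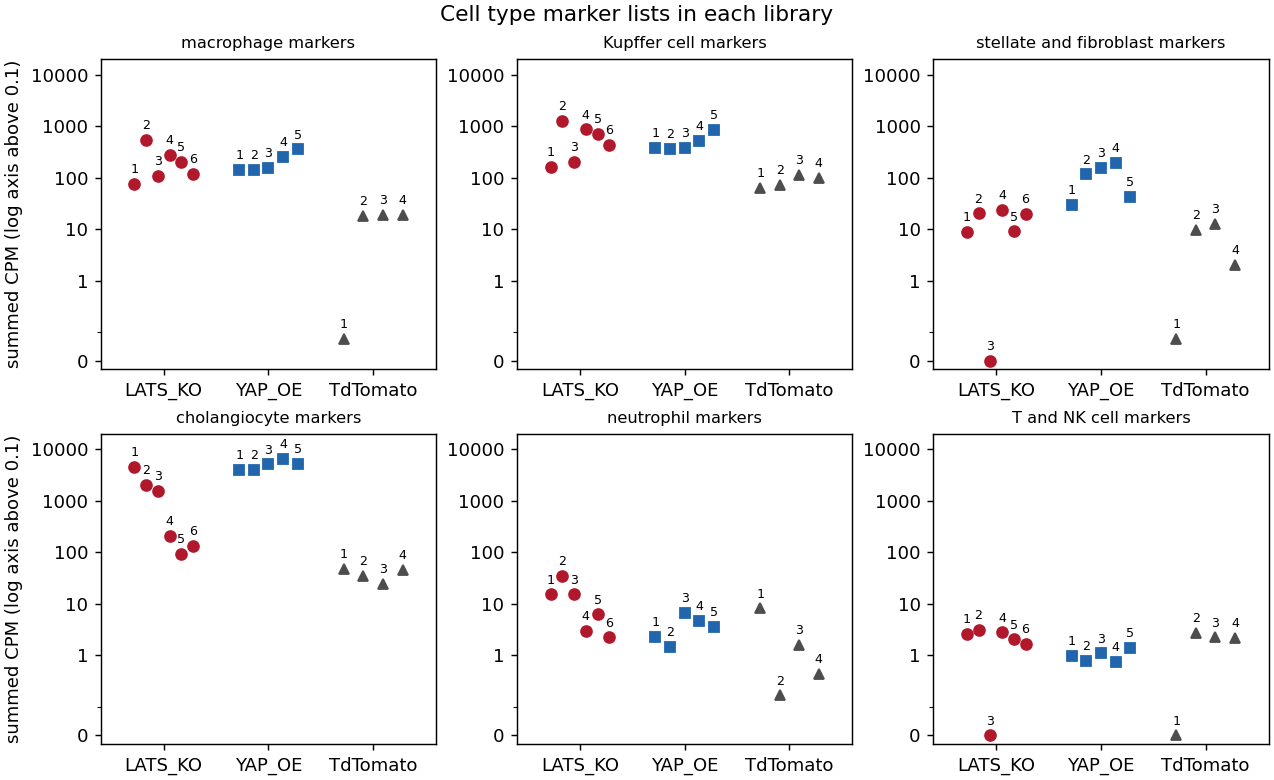
Summed CPM of the markers of 6 cell types (vertical axis, logarithmic above 0.1) in LATS_KO, YAP_OE and TdTomato libraries; each point is a library with its number. Macrophage sums were at 76.8 CPM or more in all manipulated libraries and at 19.1 CPM or less in controls. Cholangiocyte sums, which were mostly Spp1, spread widely within LATS_KO, between 92.6 and 4470 CPM.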

How the data were processed

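Liver poly(A) RNA was sequenced in 15 libraries. Per the submitters' processing notes, the tools were FastQC, Trimmomatic and STAR, and the build was mm10; versions, settings and the gene annotation are not given in the sources used here. The authors deposited raw read counts per gene, 1 file per library, with unstranded, forward and reverse columns. The reverse column was used, since the forward column held 0.966% to 1.99% of stranded counts. Rows that name no gene (14.2% to 92.5% of a library) were left out.

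From these counts, edgeR 4.0.16 in R 4.3.3 (TMM, default filterByExpr, robust quasi-likelihood, 1 fit over 3 groups with 12 residual degrees of freedom) gave two-sided tests, adjusted by Benjamini-Hochberg over all 13055 genes, threshold 0.05. SE is the log2 fold change over the root of the F statistic. CPM per kb used the union of exons in GENCODE M21. Ratios and bounds cover counting error only. The procedure was tested on simulated data, drawn without the split within LATS_KO or the lost low genes of LATS_KO 3 and TdTomato 1. That test therefore does not cover calls that depend on those features. No 2 replicates agreed within sampling noise.

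Named were all 9 members, up to 3 passing members per list and the 5 genes most like Ccl2 and Ccr2. The 9 members and the lists were chosen with earlier results of these data known. Of the list symbols, Grk2 was matched as Adrbk1 and Ly6g had no entry. The counts of a list of other receptors are not reported here. DESeq2 1.42.0, limma 3.58.1 voom, other scaling and filters, the unstranded column, fits of only the groups compared, a replicate block and left-out libraries were alternatives. Adding likeness values and list counts without LATS_KO 3 and TdTomato 1 was decided after seeing the data. The numbers of same-numbered libraries were checked for pairing.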

Additional observations from a re-analysis of the deposited data

Results flagged for a closer look

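In 6 of the 22 pairs of a member and a group with any read, 1 library lay far from the others by Dixon's criterion. Chance alone meets it in about 1 of 20 groups of normally distributed values. The CPM values here are skewed, tied at 0 in places and shared between related genes, so this rate cannot show an excess over chance. In 4 of the 6 pairs the library was LATS_KO 2. It held Ccr2 at 21.8 CPM, Ccl6 at 80.4 CPM, Ccr1 at 6.66 CPM and Cx3cr1 at 39.1 CPM, each the highest value of its group by a wide gap. That library also had the highest macrophage and Kupffer marker sums, 535 and 1247 CPM, and their part in these values was not tested. The other pairs rest on 2 reads each, Ccl8 at 0.135 CPM in LATS_KO 5 and Ccl2 at 0.0958 CPM in TdTomato 4.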

How the results depend on the processing

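Over all alternatives, the values of single members kept their direction and their side of the threshold in 462 comparisons, kept their direction but lost the threshold in 34, gained it in 2 and turned round in 15. In YAP_OE against LATS_KO, where no member passed, Ccl2, Ccl7, Ccr2 and Cx3cr1 turned under voom (2.10, 1.72, 0.67 and 2.17) and Ccl7 turned without LATS_KO 3 and TdTomato 1 (0.28). With 1 library left out, that difference ranged from −0.69 to 0.28 for Ccl7, −0.66 to 0.98 for Ccr2, −1.67 to 0.42 for Ccl6 and −0.70 to 1.98 for Cx3cr1. Ccl9 in YAP_OE against TdTomato was 0.054 without scaling factors. Ccr1 turned on the unstranded column (−0.33 in LATS_KO and −1.94 in YAP_OE, adjusted p = 0.93 and 0.42), where 108 opposite-strand reads in TdTomato 1 were counted. The calls over all genes were 1438 in LATS_KO against TdTomato, 3744 in YAP_OE against TdTomato and 129 in YAP_OE against LATS_KO. DESeq2 gave 2894 in LATS_KO against TdTomato and 779 in YAP_OE against LATS_KO, voom in the order above 3504, 8872 and 7325, and the fit without LATS_KO 3 and TdTomato 1 2245, 6416 and 1688. A fit of LATS_KO and TdTomato alone gave 1 and did not retain Ccl7 and Ccr1, which have no value there; the cause was not tested. Leaving out 1 library gave 588 to 1798, 2585 to 4973 and 36 to 389. In LATS_KO against TdTomato the count was 588, 765, 625 and 897 without TdTomato 2, 3 and 4 and LATS_KO 2, and in YAP_OE against LATS_KO it was 312, 389 and 368 without LATS_KO 2, LATS_KO 3 and TdTomato 1 and 36 to 72 without LATS_KO 4, 5 or 6 or any YAP_OE library. Without scaling factors the YAP_OE calls against TdTomato split into 3265 higher and 612 lower, and with RLE factors into 2680 and 1128, against 2332 and 1412; the members called in YAP_OE kept their direction. For DESeq2 the split was 3512 and 1518. Voom gave 2109 higher and 1395 lower in LATS_KO against TdTomato, against 1311 and 127, and did not call Ccl7 there (2.42, adjusted p = 0.12).

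With group means removed, correlations of same-numbered libraries over all genes were −0.25 to 0.23. They were not set against those of differently numbered libraries, so they cannot decide whether the numbers pair libraries. With the replicate number as a block the calls were 740 in LATS_KO against TdTomato, 3134 in YAP_OE against TdTomato and 13 in YAP_OE against LATS_KO, and Ccl7, Ccr2, Ccl6, Ccr1 and Cx3cr1 in LATS_KO and Ccl7 in YAP_OE no longer passed (adjusted p = 0.090, 0.054, 0.055, 0.071, 0.14 and 0.057). The block also turned Ccl9 in LATS_KO against TdTomato (−0.21) and Ccr2 and Cx3cr1 in YAP_OE against LATS_KO (0.25 and 1.09), none of which passed either way. Depth limits the members at 0 to 3 control reads, whose folds are bounds or wide intervals, and Ccl8 and Ccl12, which cannot be compared at this depth.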

Other observations

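The Ccr1 gene had 108 reads on its opposite strand in TdTomato 1, the library with 78.5% of its reads unmapped, and 0 on its own strand. In each of the other 14 libraries the opposite strand held at most 2 reads. The source of these reads was not tested.

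Jchain, the immunoglobulin joining chain gene among the B and plasma cell markers, moved in opposite directions in the manipulated groups. It was at 2.76 to 23.9 CPM in LATS_KO, 0.0741 to 0.224 CPM in YAP_OE and 0.477 to 3.87 CPM in TdTomato. It rose by 2.80 ± 0.87 on the log2 scale in LATS_KO against TdTomato (SE, adjusted p = 0.0497, edgeR), a call lost without most single libraries. In YAP_OE it fell by 5.93 ± 0.94 against LATS_KO (adjusted p = 0.0067) and by 3.13 ± 0.87 against TdTomato (adjusted p = 0.016). Without TdTomato 1 the value against TdTomato was −2.08 (adjusted p = 0.059).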
